A study of Mus musculus with 12 samples.

Results

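The BCL2 family controls whether the mitochondria of a stressed cell release the proteins that start its death, and 10 of its genes were read in 12 RNA libraries of mouse lung group 2 innate lymphoid cells (ILC2s). The genes were chosen by name, from 24346 gene symbols: the pro-survival genes Bcl2, Bcl2l1, Mcl1, Bcl2a1b and Bcl2a1d, the effectors Bax and Bak1, and the BH3-only genes Bcl2l11, Bbc3 and Pmaip1. Pro-survival proteins hold the effectors in check at the mitochondrial membrane, BH3-only proteins bind the pro-survival proteins or the effectors, and freed effectors open the membrane. ILC2s live long in tissue on survival signals from cytokines such as IL-7 and IL-2, and cytokines of this kind are known to act on the balance of this family in lymphocytes.

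The ILC2s were sorted from lungs of C57BL/6 mice by the labels, C57BL/6J by the study's methods. The mice were either wild type (WT) or Sema6d-/- (labelled 6DKO), a germline knockout of the gene for the membrane semaphorin SEMA6D. Mice of each genotype received PBS or IL-33, an epithelial alarmin that activates ILC2s, through the nose over 3 days, and 3 libraries were made for each of the 4 groups. The IL-33 dose was 50 ng in the labels and higher in the study's methods, and the library kit also differs between these sources, so dose and strandedness are uncertain. The mice were adult by the study's methods, with no age in the labels, which also do not say whether the libraries of a group came from separate mice, so the p-values measure spread between these libraries. Values are FPKM, fragments scaled by transcript length and by the mapped fragments of the library, which carry no read count.

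The labelled cell type was checked against 12 ILC2 markers, and all 12 were above 1 FPKM in every library. Their summed level ran from 5883 to 9369 FPKM, and Id2 was the most abundant except in 6DKO PBS replicate 3, where Areg was. Il1rl1, which encodes the IL-33 receptor, lay between 117 and 269 FPKM. Sema6d itself was still read in the 6DKO libraries, at 29.0, 22.9 and 19.8 FPKM under PBS against 27.5, 46.1 and 37.5 in WT. Under IL-33 it was at 15.4, 13.6 and 13.8 FPKM in 6DKO against 19.7, 35.5 and 28.7 in WT. The genotypes overlapped under PBS and did not overlap under IL-33. A gene-level FPKM does not separate deleted exons from the rest of a transcript, so the genotype of each library rests on its label.

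The PBS libraries were noisier than the IL-33 libraries. The median over genes of the SD of log2(FPKM + 1) was 0.66 in WT PBS and 0.70 in 6DKO PBS, against 0.29 in WT IL-33 and 0.28 in 6DKO IL-33. Among 3617 genes with a mean of 5 to 20 FPKM, 472, 536 and 169 were listed at 0 in WT PBS replicates 1, 2 and 3, and 641, 208 and 237 in those of 6DKO PBS. Between 25 and 50 were listed at 0 in each IL-33 library. Relative depth, estimated from the spacing of low FPKM values with WT IL-33 replicate 3 set to 1, ran from 0.739 in WT PBS replicate 1 to 1.39 in WT IL-33 replicate 1. The spread and the zeros thus moved with treatment, and their part in the results was not tested.

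Marker lists of 12 other cell types were read in every library as levels, with no test. Macrophage markers (10 genes) summed to 131.5 FPKM in 6DKO PBS replicate 2, most of it Lyz2 at 112 FPKM. Marco at 7.28, Mrc1 at 6.84 and Fcgr1 at 5.25 FPKM were also highest in that library, while Adgre1, Csf1r, Cd68, C1qa and C1qb were listed at 0 there. Under IL-33 this sum was 10.5, 33.4 and 62.4 FPKM in 6DKO and 2.16, 3.96 and 0.815 in WT, so it moved with genotype, with Lyz2 the most abundant gene except in WT IL-33 replicate 1, where Cd68 was. NK and ILC1 markers (5 genes) reached 113 FPKM in 6DKO PBS replicate 2 and at most 6.99 elsewhere. That library also held the highest eosinophil sum (6 genes), at 40.0 FPKM, nearly all Ear2, while Epx and Prg2 were listed at 0 in all 12 libraries. Mast cell and basophil markers (5 genes, Cpa3 the most abundant, Mcpt8 at 0) summed to between 42.9 and 95.2 FPKM under PBS and between 17.8 and 40.1 under IL-33. Erythroid markers (4 genes, Hba-a1 or Hba-a2 the most abundant) ran from 12.8 to 45.4 FPKM under PBS and from 3.803 to 9.76 under IL-33. Epithelial markers (5 genes) summed to 38.1, 33.8 and 25.4 FPKM in WT PBS and to 53.97, 52.3 and 41.9 in 6DKO PBS, so they moved with genotype under PBS. Most of this was Epcam, except for Scgb1a1 at 22.4 FPKM in 6DKO PBS replicate 2. The sums were between 4.03 and 20.2 in the IL-33 libraries other than 6DKO IL-33 replicate 3. That library reached 105.9 FPKM, of which Sftpc made up 97.2. Sftpc and Sftpa1 were listed at 0 in all 6 PBS libraries and above 0 in 4 and 3 of the IL-33 libraries. T cell markers (7 genes) summed to between 189.7 and 483 FPKM, nearly all Cd3g, and Cd4 was listed at 0 in every library. B cell markers (5 genes, mostly Cd79b, Ms4a1 at 0 in all 12) moved with treatment in WT, summing to 0, 0.139 and 5.12 FPKM under PBS and to 26.9, 14.8 and 12.01 with IL-33. In 6DKO they overlapped, at 0 to 8.90 FPKM under PBS and 3.55 to 18.4 with IL-33. Dendritic cell markers (5 genes, mostly Xcr1 and Zbtb46) did the same, at 1.30, 0.252 and 5.79 FPKM in WT PBS against 8.08, 12.5 and 19.8 in WT IL-33, and at 6.06 to 20.5 in 6DKO PBS against 16.2 to 17.1 in 6DKO IL-33. Under PBS the dendritic sum thus also moved with genotype, and its part and that of the epithelial sum in the PBS differences of Mcl1, Bbc3 and Foxo3 were not tested. Endothelial, mesenchymal and neutrophil sums reached at most 23.1 FPKM in a library, with Pecam1, Col3a1 and Cxcr2 among the most abundant genes and S100a8 and S100a9 at 0 in all 12. The sort kept cells bearing CD45, Thy1.2 and ST2 and removed those with lineage markers of T, B, NK, myeloid and erythroid cells. By the study's methods, epithelial, endothelial and mesenchymal cells were gated as lacking CD45. The part of these marker lists in the results was not tested.

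Each comparison asks whether a family gene's level differs with IL-33 or with genotype. Differences were tested with limma, two-sided, on log2(FPKM + 1) over 11395 genes averaging 0.5 FPKM or more, which all 10 members reached, and a gene is called at an adjusted p under 0.05. In the average over genotypes, limma called 5 of the 10 members, against 8.82% of all genes tested. Of these, 3 were higher with IL-33, against 5.75% of all genes, and 2 were lower, against 3.07%. In WT alone 3 members were called, against 4.27% of genes, and in 6DKO alone 2, against 2.84%. Both genotype comparisons share libraries with the treatment comparisons: 1 member was called under PBS, against 0.579% of genes, and limma called 0 under IL-33, against 0.00878%. Under IL-33, 1 member and 209 of all 11395 genes were at an unadjusted p under 0.05. For the interaction, which asks how far WT and 6DKO respond unlike each other to IL-33, limma called 0 members, against 0.0176% of genes, with 1 member and 635 of all genes at an unadjusted p under 0.05. The median log2 difference of the members in the average over genotypes was 0.25, against 0.16 for all genes tested. The member median lies midway between Bak1 and Bbc3, genes with levels at or near 0 in some libraries, and says little of members called in opposite directions. Quantile normalization moves that general median from 0.16 to -0.03.

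The groups of 3 libraries can also be compared by whether their values overlap. IL-33 and PBS values did not overlap for 9 of 10 members in WT, against 25.1% of genes, and for 7 of 10 in 6DKO, against 22.7%. The 9 in WT include Bak1, which is near the floor of the data, at 0 to 0.230 FPKM under PBS and 0.245 to 1.49 with IL-33. All 6 IL-33 libraries lay apart from all 6 PBS libraries for 3 members (Mcl1, Bax and Pmaip1), against 6.46% of genes. Genotypes did not overlap for 2 members under PBS (Mcl1 and Bbc3), against 8.63%, and for 3 under IL-33 (Bcl2a1b, Bcl2a1d and Bax), against 14.2%. An exact permutation test of 3 against 3 libraries cannot give a p under 0.10, the value it gave for each pair of groups that did not overlap.

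**Figure D1:**
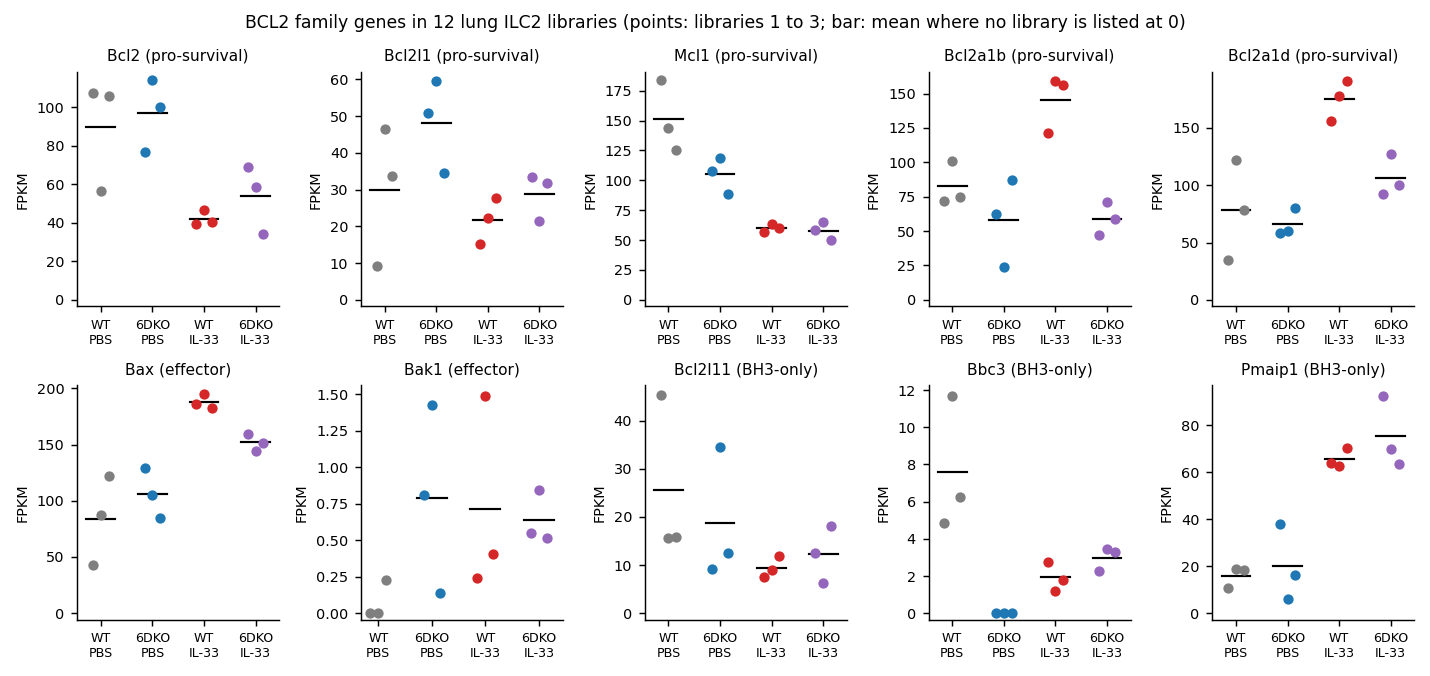
Level of each of the 10 genes in FPKM (linear axis, own scale per panel) in the 3 libraries of each of the 4 groups; points are libraries and bars are means where no library is listed at 0. Pmaip1 is at 62.5 FPKM or more in every IL-33 library and at 38.0 or less in every PBS library, while Bbc3 is listed at 0 in the 3 6DKO PBS libraries.

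Mcl1 encodes a short-lived pro-survival protein. Mcl1 stood at 184, 144 and 126 FPKM in WT PBS, and 6DKO PBS gave 108, 119 and 88.4. The WT libraries with IL-33 held 56.8, 63.4 and 59.8 FPKM and those of 6DKO 58.4, 64.7 and 49.7. Every IL-33 library was below every PBS library, and the WT PBS libraries stood highest. Averaged over genotypes, Mcl1 fell by 1.08 on the log2 scale (limma SE 0.15, adjusted p 0.000820), lower in 6 of 6 IL-33 libraries, with an exact permutation p of 0.005, the smallest that 400 assignments of treatment within genotype can give. It was called in each of the 20 alternatives, adjusted p 0.000699 to 0.00585. Mean FPKM was 2.52-fold lower with IL-33 in WT, a log2 difference of -1.30 (limma adjusted p 0.00459, 3 of 3 libraries lower), and was called there in each of 15 alternatives. In 6DKO the log2 difference was -0.85, lower in 3 of 3 libraries and not called (limma adjusted p 0.0524), and leaving out 6DKO PBS replicate 3 or a pseudocount of 0.1 brought it to an adjusted p of 0.0402 or 0.0448, of a range of 0.0402 to 0.191 over 15 alternatives. The interaction was 0.45 and not called (limma adjusted p 0.897), so a difference between the genotypes in this response was not shown. Under PBS, Mcl1 was lower in 6DKO than in WT in 3 of 3 libraries, by a log2 difference of -0.51 that was not called (limma adjusted p 0.327). These are levels of RNA in sorted bulk samples, in which fewer cells expressing a gene and less RNA per cell cannot be told apart.

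Bcl2 encodes the pro-survival protein that gave the family its name. Levels of Bcl2 in WT PBS were 107, 56.7 and 106 FPKM, and those in 6DKO PBS 76.9, 114 and 100.4. After IL-33 the WT libraries read 39.1, 46.8 and 40.5 FPKM and the 6DKO libraries 68.9, 58.7 and 34.3. IL-33 and PBS did not overlap within either genotype, although WT PBS replicate 2 was lower than 6DKO IL-33 replicates 1 and 2. Averaged over genotypes, Bcl2 fell by 0.95 on the log2 scale (limma SE 0.22, adjusted p 0.0215), lower within its genotype in 6 of 6 IL-33 libraries, with an exact permutation p of 0.005. This call was made in 16 of 20 alternatives, adjusted p 0.00658 to 0.0609. It was lost without a filter, at 0.0609, and when WT IL-33 replicate 1 (0.0562), WT IL-33 replicate 3 (0.0564) or 6DKO IL-33 replicate 3 (0.0501) was left out. Neither genotype alone gave a call: the log2 difference was -1.02 in WT (limma adjusted p 0.105, 3 of 3 libraries lower) and -0.88 in 6DKO (limma adjusted p 0.203, 3 of 3 lower). Leaving out WT PBS replicate 2, the low PBS library, gave -1.32 in WT with an adjusted p of 0.0346, of a range of 0.0346 to 0.277 over 15 alternatives. The genotypes overlapped under both treatments.

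Bcl2l1 encodes BCL-XL. The WT PBS libraries held Bcl2l1 at 9.26, 46.5 and 33.8 FPKM and the 6DKO PBS libraries at 50.8, 59.5 and 34.5. Under IL-33 the values were 15.2, 22.1 and 27.6 FPKM for WT, with 33.4, 21.5 and 31.7 for 6DKO. WT PBS replicate 1 lay below all 6 IL-33 libraries, so the WT groups overlapped, while those of 6DKO did not. No limma comparison called Bcl2l1: the averaged log2 difference with IL-33 was -0.46 (adjusted p 0.493, -0.80 to -0.24 over libraries left out), and that of 6DKO against WT under PBS was 0.90 (adjusted p 0.494) with overlapping groups. The latter was 0.24 without WT PBS replicate 1, the low library, and 1.35 without WT PBS replicate 2.

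Bcl2a1b and Bcl2a1d are copies of Bcl2a1, which encodes the pro-survival protein A1, and lie on chromosome 9. Under PBS, Bcl2a1b measured 72.0, 101 and 74.6 FPKM in WT libraries and 62.1, 23.8 and 87.4 in 6DKO libraries. The IL-33 libraries gave 121, 159 and 156 FPKM (WT) and 47.0, 71.3 and 58.8 FPKM (6DKO). In WT every IL-33 library was above every PBS library, whereas in 6DKO the IL-33 values lay inside the PBS range. The log2 difference with IL-33 was 0.82 in WT (limma adjusted p 0.310, 3 of 3 libraries higher) and 0.20 in 6DKO (limma adjusted p 0.866), neither of them called. The sign in 6DKO rests on 6DKO PBS replicate 2, without which the difference was -0.34, of a range of -0.34 to 0.58 over libraries left out. Under IL-33 the WT mean was 2.46-fold that of 6DKO, with every 6DKO library lower. That genotype difference, -1.30 on the log2 scale, had an unadjusted limma p of 0.00620 and was not called at an adjusted p of 1. With array weights, which give the IL-33 libraries more weight than the PBS libraries, it was called (-1.34, adjusted p 0.0134), beside 0.483% of all genes, and the range over 15 alternatives was 0.0134 to 1, with no other call.

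Bcl2a1d stood at 35.2, 122 and 78.5 FPKM in WT PBS, and 6DKO PBS gave 58.5, 59.97 and 80.0. The WT libraries with IL-33 held 156, 178 and 191 FPKM and those of 6DKO 92.5, 127 and 100.5. The treatments did not overlap within a genotype, and under IL-33 every WT library stood above every 6DKO library. In the average over genotypes Bcl2a1d rose by 0.997 on the log2 scale (limma SE 0.25, adjusted p 0.0308), higher within its genotype in 6 of 6 IL-33 libraries, with an exact permutation p of 0.005. The call was made in 10 of 20 alternatives, adjusted p 0.00560 to 0.105. It was lost without a filter (0.105) and with eBayes without trend (0.0657). Leaving out 6DKO PBS replicate 1 or 2 or any of the 6 IL-33 libraries also ended it, at adjusted p 0.0549 to 0.0850. In WT the log2 difference of 1.31 was not called (limma adjusted p 0.0666, 3 of 3 libraries higher), and it was 1.71 without WT PBS replicate 2 (adjusted p 0.0147) and 0.83 without WT PBS replicate 1, where it was not called. Array weights also gave a call there (0.0377), and the range over 15 alternatives was 0.0147 to 0.214. The genotype difference under IL-33 was -0.72, lower in 3 of 3 6DKO libraries and not called (limma adjusted p 1).

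How far the reads of these copies can be told apart is uncertain. Of the 743 words of 75 bases, the read length, in the Bcl2a1b transcript, 43.5% also occur in another copy, and of the 789 in Bcl2a1d, 67.6%. Bcl2a1b also shares 49.1% of its exonic bases with Gm29094 on the same strand, a gene model absent from the files. The remaining copies were low: Bcl2a1a was at most 2.16 FPKM and Bcl2a1c at most 15.02. Summed over all 4 copies, the level was 109, 229 and 159.8 FPKM in WT PBS and 129, 83.8 and 169 in 6DKO PBS. With IL-33 the sum was 289, 352 and 362 FPKM in WT and 146, 213 and 167 in 6DKO, so the WT IL-33 libraries stood above all others on the sum as well. The promoters of the pair are shown because their likeness extends past the transcripts. Read from RefSeq, build GRCm38.p6, from 250 bases before to 50 after the start, Bcl2a1b is at chr9:89199023-89199322 on the plus strand and Bcl2a1d at chr9:88731801-88732100 on the minus strand. Capitals mark the longest run that both share, 84 bases, and 247 of the 300 bases fall in 5 shared runs of 10 or more.
Bcl2a1b: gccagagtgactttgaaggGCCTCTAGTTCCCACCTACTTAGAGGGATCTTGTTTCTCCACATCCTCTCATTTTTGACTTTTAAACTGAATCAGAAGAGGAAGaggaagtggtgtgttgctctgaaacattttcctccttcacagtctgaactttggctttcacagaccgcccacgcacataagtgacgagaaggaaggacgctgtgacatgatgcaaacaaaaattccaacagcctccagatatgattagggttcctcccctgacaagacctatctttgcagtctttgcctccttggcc
Bcl2a1d: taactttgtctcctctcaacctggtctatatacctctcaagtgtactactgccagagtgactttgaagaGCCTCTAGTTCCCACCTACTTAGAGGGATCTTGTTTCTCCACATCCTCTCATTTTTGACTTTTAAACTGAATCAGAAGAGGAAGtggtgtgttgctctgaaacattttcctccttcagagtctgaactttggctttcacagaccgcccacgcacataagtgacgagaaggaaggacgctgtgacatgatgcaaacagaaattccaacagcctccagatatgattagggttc

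The make-up of the pro-survival transcripts, on the FPKM scale, differed between treatments more than their sum did. The 5 genes summed to 408, 469.8 and 418 FPKM in WT PBS, 356, 376 and 391 in 6DKO PBS, 389, 469 and 475 in WT IL-33 and 300.1, 343 and 275 in 6DKO IL-33. Within each treatment every 6DKO sum was below every WT sum, by a small gap under PBS. Bcl2a1b and Bcl2a1d together made up 26.3, 47.4 and 36.6% of the sum in WT PBS and 33.9, 22.3 and 42.9% in 6DKO PBS. With IL-33 their share was 71.4, 71.8 and 73.1% in WT and 46.5, 57.8 and 57.9% in 6DKO. The WT IL-33 libraries were highest and nearly equal, those of 6DKO IL-33 lay between, and WT PBS replicate 2 reached above the lowest of them. Mcl1 made up 45.1, 30.6 and 30.0% in WT PBS and 14.6, 13.5 and 12.6% in WT IL-33. These sums and shares are descriptions of chosen genes and were not tested.

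**Figure D2:**
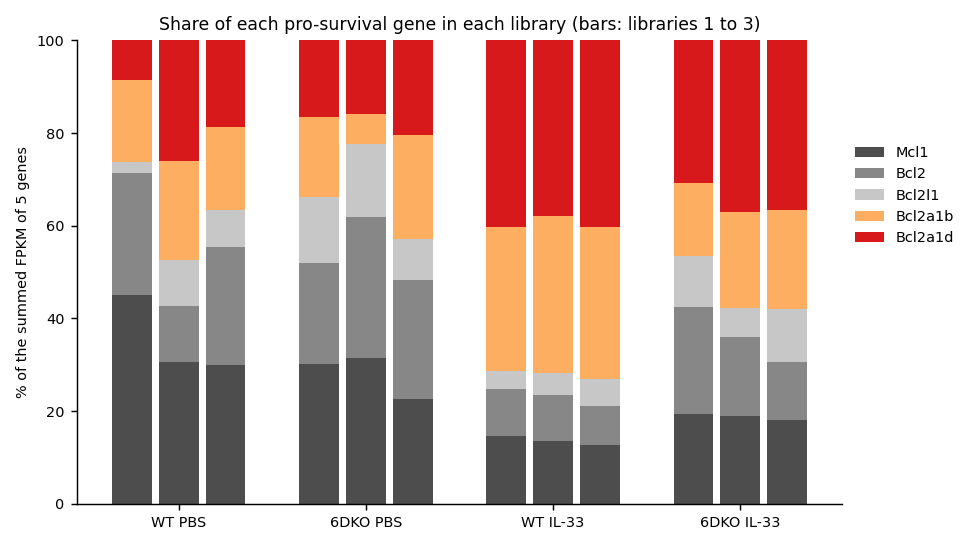
Share of each pro-survival gene in the summed FPKM of the 5 genes (vertical axis, percent) in each of the 12 libraries; each bar is a library and each colour a gene. Bcl2a1b and Bcl2a1d together fill 71.4 to 73.1% of the bars of WT IL-33 and 22.3 to 47.4% of those of PBS.

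Among the effectors, Bax encodes the protein that moves to the outer mitochondrial membrane and opens it. Levels of Bax in WT PBS were 43.3, 87.2 and 122 FPKM, and those in 6DKO PBS 129, 105 and 84.8. After IL-33 the WT libraries read 186, 195 and 182 FPKM and the 6DKO libraries 159.8, 144 and 152. All 6 IL-33 libraries were above all 6 PBS libraries, the WT libraries were highest under IL-33, and WT PBS replicate 1 was the lowest of the 12. In the average over genotypes Bax rose by 0.90 on the log2 scale (limma SE 0.22, adjusted p 0.0241), higher in 6 of 6 libraries, with an exact permutation p of 0.005. That call was made in 11 of 20 alternatives, adjusted p 0.00621 to 0.0820. It was lost without a filter (0.0820), with eBayes without trend (0.0623), and when 6DKO PBS replicate 3 or any of the 6 IL-33 libraries was left out (0.0501 to 0.0638). In WT the log2 difference was 1.27 (limma adjusted p 0.0402, 3 of 3 libraries higher), called in 6 of 15 alternatives, adjusted p 0.0113 to 0.146. Among the settings that ended it were no filter (0.125), eBayes without trend (0.0979) and a fit of the compared groups alone (0.146). The WT call ended when WT PBS replicate 1 (0.0545), WT PBS replicate 2 (0.0580) or any WT IL-33 library (0.123 to 0.132) was left out. In 6DKO the log2 difference was 0.53, higher in 3 of 3 libraries and not called (limma adjusted p 0.464). The interaction, -0.74, was not called either (limma adjusted p 0.897) and ran from -1.07 to -0.33 over libraries left out. Under IL-33 Bax was lower in 3 of 3 6DKO libraries than in any WT library, a log2 difference of -0.30 that was not called (limma adjusted p 1).

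The ratio of Bax to Bcl2 in FPKM, a description, was 0.403, 1.54 and 1.15 in WT PBS and 1.68, 0.922 and 0.845 in 6DKO PBS. With IL-33 this ratio was 4.75, 4.17 and 4.499 in WT and 2.32, 2.46 and 4.42 in 6DKO. Every IL-33 library was above every PBS library, and 6DKO IL-33 replicate 3, the library with the lowest Bcl2, was near the WT values. Bak1, the other effector, was near the floor of the data: 0, 0 and 0.230 FPKM in WT PBS, 0.809, 1.43 and 0.136 in 6DKO PBS, 0.245, 1.49 and 0.409 in WT IL-33 and 0.548, 0.845 and 0.515 in 6DKO IL-33. In units of the smallest spacing of values in a library, an estimate of 1 read, these levels are 0, 0 and 3 in WT PBS and between 2 and 24 in the other 9 libraries. Bak1 also shares 25.5% of its exonic bases with Ggnbp1 on the opposite strand. Bax shares 12.2% with Gm45808 on the same strand, and Bcl2 6.09% with D630008O14Rik on the opposite strand. The averaged limma log2 difference of Bak1 was 0.27 and not called (adjusted p 0.637), and it ran from -0.49 with quantile normalization to 1.10 with a pseudocount of 0.1. The scale log2(FPKM + 1) understates changes of genes this low.

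Of the BH3-only genes, Pmaip1 encodes NOXA, which binds MCL1 and A1 and promotes the turnover of MCL1. The WT PBS libraries held Pmaip1 at 10.95, 18.7 and 18.4 FPKM and the 6DKO PBS libraries at 38.0, 6.28 and 16.4. Under IL-33 the values were 64.2, 62.5 and 70.2 FPKM for WT, with 92.7, 70.1 and 63.4 for 6DKO. Every IL-33 library was above every PBS library, with 6DKO PBS replicate 1 the highest under PBS. In the average over genotypes Pmaip1 rose by 2.08 on the log2 scale (limma SE 0.35, adjusted p 0.00287), higher in 6 of 6 libraries, with an exact permutation p of 0.005. It was called in each of the 20 alternatives, adjusted p 0.000377 to 0.0175. The mean was 4.10-fold higher with IL-33 in WT and 3.73-fold higher in 6DKO, where the log2 difference of 2.15 was 2.75 without 6DKO PBS replicate 1 and 1.54 without 6DKO PBS replicate 2, the highest and the lowest PBS library. Taken alone, WT gave a call (limma adjusted p 0.0412, 3 of 3 libraries higher) in 4 of 15 alternatives, adjusted p 0.0166 to 0.147. Settings that ended it included pseudocount 0.1 (0.0505), no filter (0.133), quantile normalization (0.0504) and eBayes without trend (0.0696). Without any 1 of the 6 WT libraries the call was lost, at 0.117, 0.0612 and 0.0607 without WT PBS replicates 1, 2 and 3 and 0.126, 0.118 and 0.147 without those of WT IL-33. 6DKO alone (log2 difference 2.15, limma adjusted p 0.0395, 3 of 3 libraries higher) was called in 7 of 15 alternatives, adjusted p 0.00528 to 0.163. It was lost with no filter (0.129), with eBayes without trend (0.0634) and in a fit of the compared groups alone (0.163). The 6DKO call was lost without 6DKO PBS replicate 3 (0.0713) and without 6DKO IL-33 replicate 1 (0.162), 2 (0.121) or 3 (0.113). The genotypes overlapped under both treatments.

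**Figure D3:**
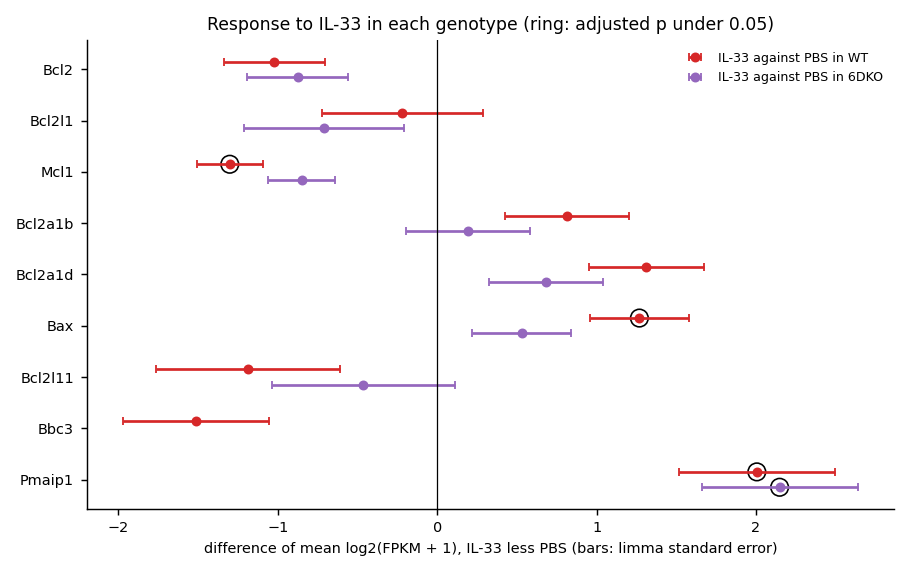
Difference of mean log2(FPKM + 1) between IL-33 and PBS (horizontal axis) for 9 of the 10 genes, by genotype; points are limma estimates, bars their standard errors, and rings mark an adjusted p under 0.05. Bak1 is left out for its low level and Bbc3 in 6DKO because its PBS libraries are listed at 0; Pmaip1 stands near 2 in both genotypes and Mcl1 lies at -1.30 in WT and -0.85 in 6DKO.

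Bcl2l11 encodes BIM, a killer of lymphocytes deprived of cytokine. Under PBS, Bcl2l11 measured 45.3, 15.6 and 15.7 FPKM in WT libraries and 9.25, 34.5 and 12.5 in 6DKO libraries. The IL-33 libraries gave 7.46, 9.02 and 11.9 FPKM (WT) and 12.5, 6.31 and 18.03 FPKM (6DKO). In WT all IL-33 libraries were below all PBS libraries, of which replicate 1 stood far above the others, and in 6DKO the groups overlapped. The averaged log2 difference was -0.83 and not called (limma adjusted p 0.257, exact permutation p 0.09). It was -1.19 in WT (limma adjusted p 0.317, 3 of 3 libraries lower), or -0.70 without WT PBS replicate 1, and -0.46 in 6DKO (limma adjusted p 0.763), and leaving out 6DKO PBS replicate 2 turned the 6DKO value to 0.07, of a range of -0.83 to 0.07.

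Bbc3 encodes PUMA, a BH3-only protein under the control of p53 and FOXO factors. It was at 4.86, 11.7 and 6.24 FPKM in WT PBS and listed at 0 in all 3 libraries of 6DKO PBS. The WT libraries with IL-33 held 2.78, 1.19 and 1.797 FPKM and those of 6DKO 2.29, 3.43 and 3.27. WT PBS was thus the highest group and 6DKO PBS the lowest, with both IL-33 groups between them and overlapping each other. The genotype difference under PBS was called (limma adjusted p 0.0197, lower in 3 of 3 6DKO libraries), in 12 of 15 alternatives with adjusted p 0.00439 to 0.436. Among the settings that ended it were array weights (0.436) and a fit of the compared groups alone (0.350). In each of these, 0.00878% of all genes was called for genotype under PBS, against 0.579% in the main fit. The fitted value of Bbc3, -3.02 on the log2 scale, depends on the pseudocount against a group at 0 and is no fold. In WT the mean was 3.94-fold lower with IL-33, a log2 difference of -1.51 that was not called (limma adjusted p 0.0968, 3 of 3 libraries lower). It was called with quantile normalization (-1.97, limma adjusted p 0.0339) and with eBayes without trend (limma adjusted p 0.0394), and the limma adjusted p ran from 0.0339 to 0.300 over 15 alternatives. In 6DKO the values above 0 under IL-33 were called against those at 0 (fitted difference 1.99, limma adjusted p 0.0420, 3 of 3 libraries higher), in 4 of 15 alternatives with adjusted p 0.00570 to 0.174. Settings that ended this call included no filter (0.0577), a filter at a mean of 2 FPKM (0.0541), quantile normalization (0.174) and array weights (0.0920). Without any 1 of the 6 6DKO libraries that call was lost, at 0.0618, 0.0502 and 0.0637 without 6DKO PBS replicates 1, 2 and 3 and 0.101, 0.155 and 0.141 without those of 6DKO IL-33. The interaction, a fitted 3.50, was not called by limma (adjusted p 0.196), and of 20 alternatives 1 called it, eBayes without trend (0.0349, range 0.0349 to 0.727). An exact permutation of genotype labels within treatment, chosen after the values were seen, gave p 0.01 for it. That permutation tests for no genotype effect under either treatment and not for equal responses.

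Zeros of this kind were not particular to Bbc3. Among 4861 genes with a mean of 1 to 10 FPKM, 24 were listed at 0 in all 3 6DKO PBS libraries and above 0 in all 3 WT PBS libraries, and 22 the other way round. Of the 24, 20 were above 0 in all 6 IL-33 libraries. The part in the Bbc3 result of these zeros, and of the epithelial and dendritic markers that also differed between genotypes under PBS, was not tested.

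Of the 10 genes, 9 were matched to RefSeq promoters of 300 bases, 14 in all, and the Pmaip1 promoter was not in the table. Bcl2l11 has 2 of these promoters, Bbc3 and Bcl2l1 have 3 each, and the other matched genes 1 each. The shares of all promoters given here are per promoter and not per gene. Letters bound by FOXO factors (TGTTTAC, both strands) occur in 3.65% of 32851 promoters. They were found in a promoter each of Bcl2l11 and Bbc3, the members with known FOXO control, which is why these are shown. The Bcl2l11 promoter shown is at chr2:128125788-128126087 and that of Bbc3 at chr7:16310011-16310310, both on the plus strand in GRCm38.p6. Capitals mark the match, which in Bcl2l11 reads on the minus strand.
Bcl2l11: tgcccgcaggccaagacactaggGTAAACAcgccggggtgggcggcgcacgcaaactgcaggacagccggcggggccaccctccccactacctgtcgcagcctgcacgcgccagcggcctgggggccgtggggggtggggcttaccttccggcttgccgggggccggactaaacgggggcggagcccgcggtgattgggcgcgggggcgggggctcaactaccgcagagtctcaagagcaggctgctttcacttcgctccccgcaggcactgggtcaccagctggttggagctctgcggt
Bbc3: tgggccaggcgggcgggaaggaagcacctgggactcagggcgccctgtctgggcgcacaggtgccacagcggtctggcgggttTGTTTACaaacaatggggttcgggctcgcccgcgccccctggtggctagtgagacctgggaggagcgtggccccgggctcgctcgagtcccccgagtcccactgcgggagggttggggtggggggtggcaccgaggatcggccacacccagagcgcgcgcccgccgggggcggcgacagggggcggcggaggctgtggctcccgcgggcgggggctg
The NF-kB consensus, in 4.51% of promoters, was found in a promoter of Bcl2l1 and in another promoter of Bbc3. The STAT letters TTCNNNGAA, in 8.30% of promoters, were found in none of the 14, which says only that these letters are not in these windows. A match is a description of letters and not a bound site.

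Ordered by mean FPKM, the leading genes were Mcl1, Bcl2 and Bax in WT PBS, at 151 ± 29.9 (SD, n = 3), 90.0 ± 28.9 and 84.2 ± 39.5 FPKM. The last pair, with Bcl2a1b and Bcl2a1d at 82.5 ± 16.0 and 78.5 ± 43.3 FPKM, did not differ beyond their spread. In 6DKO PBS the leaders were Bax, Mcl1 and Bcl2, at 106 ± 22.2, 105 ± 15.3 and 97.2 ± 18.9 FPKM, again within their spread. With IL-33 the order in WT was Bax at 188 ± 6.52, Bcl2a1d at 175 ± 17.6 and Bcl2a1b at 145 ± 21.0 FPKM, followed by Pmaip1 at 65.7 ± 4.05, Mcl1 at 60.02 ± 3.30 and Bcl2 at 42.1 ± 4.08. The step from Bcl2a1b to Pmaip1 was beyond the spread of both, and Bax and Bcl2a1d overlapped. In 6DKO it was Bax at 152 ± 7.69, Bcl2a1d at 107 ± 18.02 and Pmaip1 at 75.4 ± 15.4 FPKM. Next came Bcl2a1b at 59.0 ± 12.2, Mcl1 at 57.6 ± 7.52 and Bcl2 at 54.0 ± 17.7, of which the last 3 overlapped. Pmaip1 values there also overlapped those of Bcl2a1d, Bcl2a1b, Mcl1 and Bcl2. Bcl2l1, Bcl2l11, Bbc3 and Bak1 filled the lower places in both IL-33 groups.

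Across the 12 libraries, Pearson r of log2(FPKM + 1) with 7412 genes averaging 5 FPKM or more describes which patterns ran closest, the treatment groups being shared by all. Mcl1 was nearest to Nfkbiz (0.955), Rela (0.949) and Sema4a (0.948). Bcl2 was nearest to Enpp4 (0.920), Tmppe and Gimap5, and Bcl2l1 to Ptar1 (0.930), Mib2 and Atxn2l. For Bcl2a1d these were Atp5j (0.952), Pfn1 and Capg, and for Bcl2a1b Mtfr1l (0.876), Rpl18 and Dctn2. Bax ran closest to 2210016F16Rik (0.967), Gmfg and Slc35a1. Pmaip1 was nearest to Myl12b (0.960), Cd74 and Plac8, and Bcl2l11 to Gm10845 (0.911), Gltscr1l and Zcchc6. Bcl2a1b and Bcl2a1d, which share sequence, had an r of 0.658 with each other, and of 0.987 over the 6 IL-33 libraries alone, in which the genotypes stand apart for both.

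Around the family, 82 genes in 7 pathway lists were read, of which 75 were tested. In the average over genotypes limma called 7 of these higher with IL-33, against 5.75% of all genes, and 3 lower, against 3.07%. Of 10 further BCL2 family genes tested, 2 were called, both higher, with a median log2 difference of 0.25 against 0.16 for all genes. They were Bik, a BH3-only gene (0.64, limma adjusted p 0.0485, 6 of 6 libraries higher), and Bcl2l15 (3.09, limma adjusted p 0.00228). Bcl2l15 was at 0, 0 and 2.60 FPKM in WT PBS and 1.37, 6.19 and 15.02 in 6DKO PBS, against 19.7, 31.3 and 35.2 and 18.2, 29.3 and 25.9 with IL-33. Of 16 genes of the caspase cascade and mitochondria, 3 were called, all higher, with a list median of 0.68. The channel genes Vdac1 (2.06, or 1.46 without 6DKO PBS replicate 1, limma adjusted p 0.0431) and Vdac3 (1.13, limma adjusted p 0.0230) were each higher within genotype in 6 of 6 libraries. Of 6 inhibitors of apoptosis, Birc5, also a gene of cell division, was the only call and was higher, at 18.2, 17.9 and 23.5 FPKM in WT IL-33 and 8.16, 6.30 and 15.3 in 6DKO IL-33. Under PBS it was at most 7.71 FPKM, with 1 library listed at 0 (limma log2 difference 3.22, adjusted p 0.00227), and the list median was 0.10. Bcl2l15 and Birc5 were called in each of 20 alternatives, while the calls of Bik, Vdac1 and Vdac3 depended on single libraries. Bik was called in 7 of 20 (adjusted p 0.0262 to 0.128), and leaving out any library but WT PBS replicate 2 and 6DKO PBS replicate 2 ended its call (0.0540 to 0.128). For Vdac1 (9 of 20, adjusted p 0.0114 to 0.165) the libraries that did so were WT PBS replicates 1 and 3 and any IL-33 library (0.0615 to 0.102). For Vdac3 (13 of 20, adjusted p 0.00106 to 0.0824) they were WT PBS replicate 1 and each IL-33 library except 6DKO IL-33 replicate 3 (0.0506 to 0.0634).

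Of 10 genes of the p53 axis, 1 was called, Trp53inp1, higher by 1.24 (limma adjusted p 0.0162, 5 of 6 IL-33 libraries above every PBS library of their genotype), with a list median of 0.30. The 10 death receptor genes (median 0.09) and 5 tested genes of MCL1 turnover (median -0.30) held 0 limma calls in either direction, with 1 and 0 genes at an unadjusted p under 0.05, against 2592 of all 11395. Of 18 genes of the survival cytokine axis, 3 were called, all lower, with a median of -0.07. Il2ra, for a chain of the IL-2 receptor, was at 96.2, 122 and 112 FPKM in WT PBS and 103, 100.4 and 132 in 6DKO PBS. With IL-33 the level was 18.98, 27.7 and 25.6 FPKM in WT and 47.5, 29.4 and 35.3 in 6DKO, apart from PBS in 6 of 6 libraries (log2 difference -1.86, limma adjusted p 5.96e-05). Il2rg, for the receptor chain shared with IL-7, fell by 0.33 (limma adjusted p 0.00500, 6 of 6 libraries lower), and Rela, for an NF-kB subunit, by 0.46 (limma adjusted p 0.0450, 6 of 6 lower). In the genotype comparisons the lists held 1 limma call, against 0.579% of all genes under PBS: Foxo3 under PBS, with 0.0617, 0 and 1.03 FPKM in WT against 7.80, 4.56 and 8.72 in 6DKO (adjusted p 0.0358, 3 of 3 6DKO libraries higher). Under IL-33 the Foxo3 groups overlapped, at 1.57, 2.98 and 2.14 FPKM in WT and 0.856, 1.32 and 1.90 in 6DKO. Over the 20 alternatives, 2 to 9 of the 75 genes were called higher and 1 to 4 lower in the average. The share of all genes called in either direction ran from 3.1% with no filter to 10.9% without 6DKO PBS replicate 2. Foxo3 was called in 7 of 15 alternatives, limma adjusted p 0.0152 to 0.717. Its call was lost without WT PBS replicate 1 (0.0601) or 2 (0.0617), and among other settings with pseudocount 0.1 (0.0643), no filter (0.1005), quantile normalization (0.0913), array weights (0.565) and a fit of the compared groups alone (0.717). That of Trp53inp1 (18 of 20, adjusted p 0.00950 to 0.0515) was lost without WT IL-33 replicate 2 (0.0505) or 3 (0.0515). The call of Il2rg (18 of 20, adjusted p 0.00418 to 0.250) ended with quantile normalization (0.0676) and with eBayes without trend (0.250). Rela was called in 9 of 20 (adjusted p 0.0101 to 0.131), and lost its call without WT PBS replicate 1 (0.0543), 6DKO PBS replicate 3 (0.0570) or any IL-33 library (0.0709 to 0.103). Il2ra was called in each of the 20.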

How the data were processed

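RNA of sorted lung ILC2s was read in 12 libraries, 3 in each of 4 groups. Per the submitters' processing notes, reads were aligned to mm10 with TopHat2 2.1.1 and Bowtie2, and values were made with Cuffdiff 2.2.1. The study's methods name another TopHat version and Cuffnorm 2.2.1, which scales libraries to each other. The deposited values are FPKM as the authors made them; the scaling method chosen and the gene annotation are not stated. FPKM holds no depth, so relative depth was estimated from the spacing of low values and ran from 0.739 to 1.39 over the 12 libraries. Grouping followed the labels. Differences were tested with limma 3.58.1 in R 4.3.3 (lmFit, eBayes with trend) on log2(FPKM + 1), with 1 mean for each group, 8 residual degrees of freedom and Benjamini-Hochberg adjustment over 11395 genes averaging 0.5 FPKM or more. The fit was tested on simulated data. Exact permutation tests used Python 3.11.15 with scipy 1.17.1, numpy 2.4.6 and pandas 2.3.3, and figures matplotlib 3.10.9. Alternatives were pseudocount 0.1, no filter, a filter at a mean of 2 FPKM, median-ratio scaling, quantile normalization, eBayes without trend, array weights, only the groups compared, a replicate block, and leaving out each of the 12 libraries. Sequences came from RefSeq (GRCm38.p6), and exon positions from GENCODE on GRCm38.

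The members and lists were chosen with earlier results of these data known. Pathway genes are named where limma called them in the averaged comparison, a genotype comparison or the interaction, at most 5 for each list; 1 gene so called is counted but not reported here. For each member with a mean of at least 5 FPKM the 3 genes with the highest r are named. Sema6d, Gm29094, Ggnbp1, Gm45808, D630008O14Rik and the cell type markers singled out were named after their values were seen. The overlap of gene models does not use read strands. Proteins were not compared, for want of a sequence table.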

Additional observations from a re-analysis of the deposited data

Results flagged for a closer look

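The response of Bbc3 to IL-33 differed between the genotypes in direction: in WT all 3 IL-33 libraries were below all 3 PBS libraries, and in 6DKO all 3 were above PBS libraries listed at 0. The difference of the responses, 6DKO less WT, was 3.50 in log2(FPKM + 1) and was not called by limma (adjusted p 0.196). An exact permutation of genotype labels within treatment gave p 0.01. That test was chosen after the values were seen and tests for no genotype effect under either treatment, not for equal responses. The WT response alone was not called (limma adjusted p 0.0968) but was in 2 of 15 alternatives, with adjusted p from 0.0339 to 0.300. The size depends on the pseudocount, since 6DKO PBS is listed at 0. At 1.19 to 11.7 FPKM in the other 9 libraries the gene was low, and the part of depth and of the zeros of the PBS libraries was not tested.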

How the results depend on the processing

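Over 47 differences and counts, of members and of pathway genes called, 815 values were recomputed under the alternatives. Of these, 672 kept their direction and their side of the threshold, 128 lost a call, 9 gained a call and 6 changed sign. None of those that changed sign was a called difference. The calls lost and gained are those of single genes. A count that moved was not tallied as lost or gained, and the counts are given below and with the pathway lists. Leaving out 6DKO PBS replicate 2 turned the response to IL-33 in 6DKO to -0.34 for Bcl2a1b (range over libraries left out -0.34 to 0.58) and to 0.0691 for Bcl2l11 (-0.83 to 0.0691). For Bcl2l1 in WT, -0.22, the values were 0.2241 without WT PBS replicate 2, 0.0004 without WT PBS replicate 3 and 0.003 without WT IL-33 replicate 1 (range -0.88 to 0.2241). Quantile normalization turned the averaged Bak1 difference to -0.4854. The 47 do not hold every member difference, and others, never called, also changed sign under an alternative. Among them were averaged Bbc3 (-0.3221 to 1.5138) and Bak1 in WT (-0.0328 to 2.1319) and in 6DKO (-0.9379 to 0.1846). For genotype under PBS they included Bcl2 (-0.1507 to 0.3070), Bcl2a1d (-0.5722 to 0.3099) and Pmaip1 (-0.5613 to 0.6504). Of the counts of members called (3 in WT, 2 in 6DKO, 5 in the average, 1 for genotype under PBS, 0 under IL-33 and 0 for the interaction), pseudocount 0.1 gave 2 in WT and 3 in 6DKO, and no filter 1 in WT, 0 in 6DKO and 2 in the average. Of all genes, pseudocount 0.1 called 4.34% in WT and 3.16% in 6DKO, and no filter 1.52, 1.04 and 3.1%. A filter at 2 FPKM gave 1 in 6DKO, against 2.96% of all genes, and quantile normalization also 1, against 2.37%. eBayes without trend gave 2 in WT, 1 in 6DKO, 3 in the average and 1 for the interaction. It called 3.32, 2.5, 7.6 and 0.0614% of all genes there. Array weights gave 4 in WT, 1 in 6DKO, 0 for genotype under PBS and 1 under IL-33. Their shares of all genes were 3.69, 1.97, 0.00878 and 0.483%. The fit of the compared groups alone gave 2 in WT, 1 in 6DKO and 0 for genotype under PBS. In that fit 4.47, 2.76 and 0.00878% of all genes were called. Leaving out 1 library at a time gave 1 to 3 in WT, 0 to 1 in 6DKO, 2 to 5 in the average, 1 for genotype under PBS, 0 under IL-33 and 0 for the interaction. The share of all genes then ran from 1.77 to 5.27% in WT, 1.07 to 4.18% in 6DKO and 5.79 to 10.9% in the average. For genotype it was 0.685 to 1.87% under PBS and 0 to 0.0263% under IL-33, and for the interaction 0 to 0.219%. With the replicate number as a replicate block the counts were 1 in WT, 0 in 6DKO and 5 in the average. The block gave 0 for genotype under PBS, where the limma adjusted p of Bbc3 was 0.0582. In these 4 comparisons it called 3.17, 1.91, 7.13 and 0.132% of all genes. Between replicates of the same number in different groups, the r of deviations from the group means ran from -0.047 to 0.045. Replicates of different numbers were not compared. No filter tests more genes, which enters the adjustment; otherwise the cause was not tested. The part of the spread of the PBS libraries and of depth, for which the files hold no read counts, was not tested.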
